A study of Mus musculus with 12 samples.

Results

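The genes described here are 49 genes of the cell division cycle, chosen by name from a gene table of 55679 rows, in which each has 1 row. They comprise 17 genes of DNA replication, 30 genes of mitosis and 2 genes, Hmgb2 and Stmn1, that belong to neither phase alone. Pttg1, Kpna2 and the cohesin genes were left out by the rule. Their levels were compared between the lung and the heart of adult mice and between mice with and without functional Adam19, which encodes a membrane-anchored metalloprotease. All mice were males of the 129S6/SvEvTac strain. The wild-type (WT) group was 3 mice with intact Adam19, and the knockout (KO) group was 3 mice homozygous for an Adam19-tdTomato allele, in which a red fluorescent reporter takes the place of exons 6 and 7 throughout the body. Whole lung and whole heart were frozen from each untreated mouse, which gives 12 stranded total RNA libraries from 6 mice, 3 per tissue and genotype. A lung and a heart with the same genotype and replicate number came from 1 mouse, whereas WT and KO numbers were unrelated. The identifier prefixes of the mice differed between the genotypes, so any difference of litter or cage that the prefixes stand for cannot be told apart from genotype.

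A dividing cell copies its DNA once and then parts the copies. Before replication, Cdc6 and Cdt1 load the ring of Mcm2 to Mcm7 proteins onto origins, and the ring later unwinds the DNA while the clamp Pcna holds the polymerases in place and Rrm1, Rrm2, Tyms and Tk1 supply deoxynucleotides. In mitosis, Cdk1 with its cyclins starts the process, kinetochore proteins join chromosomes to the spindle, checkpoint kinases hold the cell until every chromosome is attached, and Cdc20 and Ube2c then direct cyclins to destruction. Most cells of adult lung and heart are not cycling. In them the DREAM complex, which pairs a pocket protein and an E2F factor with the MuvB core, keeps both sets of genes low, acting through E2F sites in replication promoters and through the cell cycle genes homology region (CHR) in mitotic promoters.

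The promoter sequences were examined first, because they carry a difference between the phases that the choice of genes did not use. The RefSeq promoter table (GRCm38.p6, a fixed window around each start site) held 40 of the 49 genes, 14 of replication, 25 of mitosis and Hmgb2. Exact matches were searched on both strands. The CHR letters TTTGAA occurred in 17 of 25 mitotic promoters (68.0%) and in 1 of 14 replication promoters (7.1%), that of Mcm2, against 20.2% of all 27025 genes in the table. An E2F site, spelled TTTGGCGC, TTTCGCGC or TTTCCCGC, occurred in 6 of 14 replication promoters (42.9%), those of Cdc6, Cdt1, Mcm3, Mcm5, Mcm6 and Mcm7, and in 1 mitotic promoter (4.0%), that of Cdk1, against 2.1% of all genes. The box CCAAT occurred in 72.0% of mitotic, 57.1% of replication and 41.1% of all promoters. The element TAGCGC, known as CLE, occurred in 8.0%, 21.4% and 5.6%, respectively. These shares are a description of letters and carry no test.

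**Figure D1:**
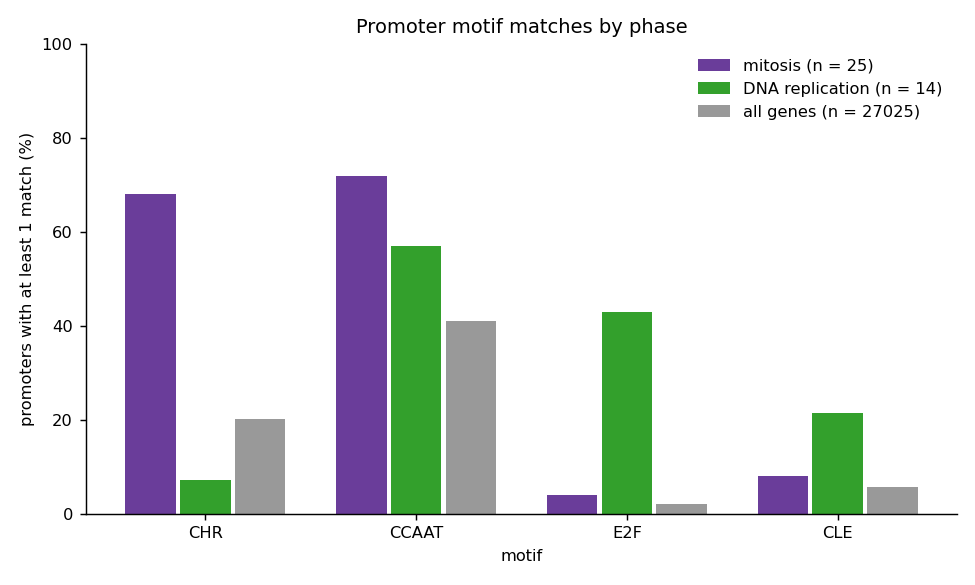
Share of promoters with at least 1 match (y axis, percent) for 4 motifs (x axis), in 25 mitosis genes (purple), 14 DNA replication genes (green) and all 27025 genes of the promoter table (grey). CHR matches stand at 68.0% in mitosis genes and 7.1% in replication genes, and E2F matches at 4.0% and 42.9%.

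Windows of 30 bases around the matches are shown for Cdc20, Ccnb2 and Kif23, mitosis genes with an adjusted p under 0.05 and higher values in WT lung, for Cenpa and Cenpf, which were higher in heart, and for 2 replication genes, each read 5′ to 3′ on the gene's own strand with the motif letters in capitals.
Cdc20: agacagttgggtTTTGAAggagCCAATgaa
Ccnb2: agcggcgcggtaTTTGAAtcgcggaccggg
Kif23: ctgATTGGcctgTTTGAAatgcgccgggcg
Cenpa: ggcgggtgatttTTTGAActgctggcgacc
Cenpf: ggcggcgggcagTTTGAAtcgctcgtgctg
Mcm6: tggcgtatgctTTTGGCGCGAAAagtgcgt
Mcm5: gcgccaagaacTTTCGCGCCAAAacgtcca
In Cdc20 (chr4:118437344-118437373, minus strand) the capitals mark TTTGAA followed by CCAAT, and in Kif23 (chr9:61946780-61946809, minus strand) the CCAAT box, read as ATTGG, precedes TTTGAA. The Ccnb2 window lies at chr9:70421533-70421562 on the minus strand. In Cenpa (chr5:30666890-30666919, plus strand) TTTGAA begins at base 17 and in Cenpf (chr1:189688067-189688096, minus strand) at base 3, with the start site as base 1. Both genes therefore hold the mitotic motif, and both were called higher in heart, whereas 27 of the 30 mitosis genes had positive lung-minus-heart differences in WT mice. The capitals in Mcm6 (chr1:128359797-128359826, minus strand) and Mcm5 (chr8:75109345-75109374, plus strand) mark pairs of E2F sites on opposite strands that overlap each other.

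Gene values were deposited on a log2 scale, and differences between values are log2 differences. Summed estimated read counts ran from 17674788 to 35862932 per library. Counts recovered from the gene values of the 49 genes summed to 2686 to 11496 per library. Adam19, the targeted gene, had values of 9.12 to 9.41 in WT and 3.21 to 4.44 in KO lungs, and of 9.17 to 10.27 in WT and 6.01 to 6.67 in KO hearts, so the labels hold for all 12 libraries. The noncoding RNA Rn7s1 took between 2.09% and 33.9% of the summed abundance of the lung libraries and between 2.69% and 11.8% of the heart libraries. Summed lung epithelial markers were at 18.8 to 19.1 in lungs and 6.38 to 10.7 in hearts, and summed heart muscle markers at 20.8 to 21.1 in hearts and 13.3 to 14.6 in lungs, which fits both tissue labels. The study's thresholds defined a call, namely a Benjamini-Hochberg adjusted p under 0.05 from limma, a change of 1.5-fold or more, and a higher group averaging 6 or more. In WT mice 20 of the 49 genes had means under 6 in both tissues and could not be called whatever their difference.

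Most cell division genes had higher values in lung than in heart, and by the sign of the difference this held for both phases. In WT mice 16 of 17 replication and 27 of 30 mitosis genes had positive lung-minus-heart differences, and in KO mice 15 and 26. Of all 17666 genes tested, 10496 in WT and 10280 in KO mice did. In WT mice 21 of 49 genes (42.9%) were called higher in lung, against 29.3% of the 17666 genes tested, and 2 (4.08%), Cenpa and Cenpf, were called higher in heart, against 20.1%. By adjusted p alone, 35 genes (71.4%, against 41.2%) were higher in lung and 2 (4.08%, against 26.1%) in heart. In KO mice, 17 genes (34.7%, against 28.7%) were called higher in lung and 3 (6.12%, against 20.9%) in heart, and by adjusted p alone 30 (61.2%, against 40.1%) and 4 (8.16%, against 27.1%). The median log2 difference of the 49 genes was 1.26 in WT and 1.04 in KO mice, against 0.32 and 0.29 for all genes tested. Scaling by total counts shifted the medians of all genes to 0.79 and 1.01, those of the 49 genes to 1.70 and 1.73, and the counts called higher in lung to 26 and 28, whereas median-of-ratios scaling gave 17 and 14. Of the genes called higher in lung, 15 were called in both genotypes, which is 71.4% of the WT and 88.2% of the KO list. The same overlap was not counted over all genes, and both contrasts shared 1 fit, so it is not a trait of these genes in particular. In all 6 mice, the lung library lay above the heart library for 33 genes (67.3%, against 41.4% of all genes), and the heart library above the lung library for Cenpa and Cenpf (4.08%, against 26.9%). In whole tissue, fewer dividing cells and less RNA per cell cannot be told apart.

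**Figure D2:**
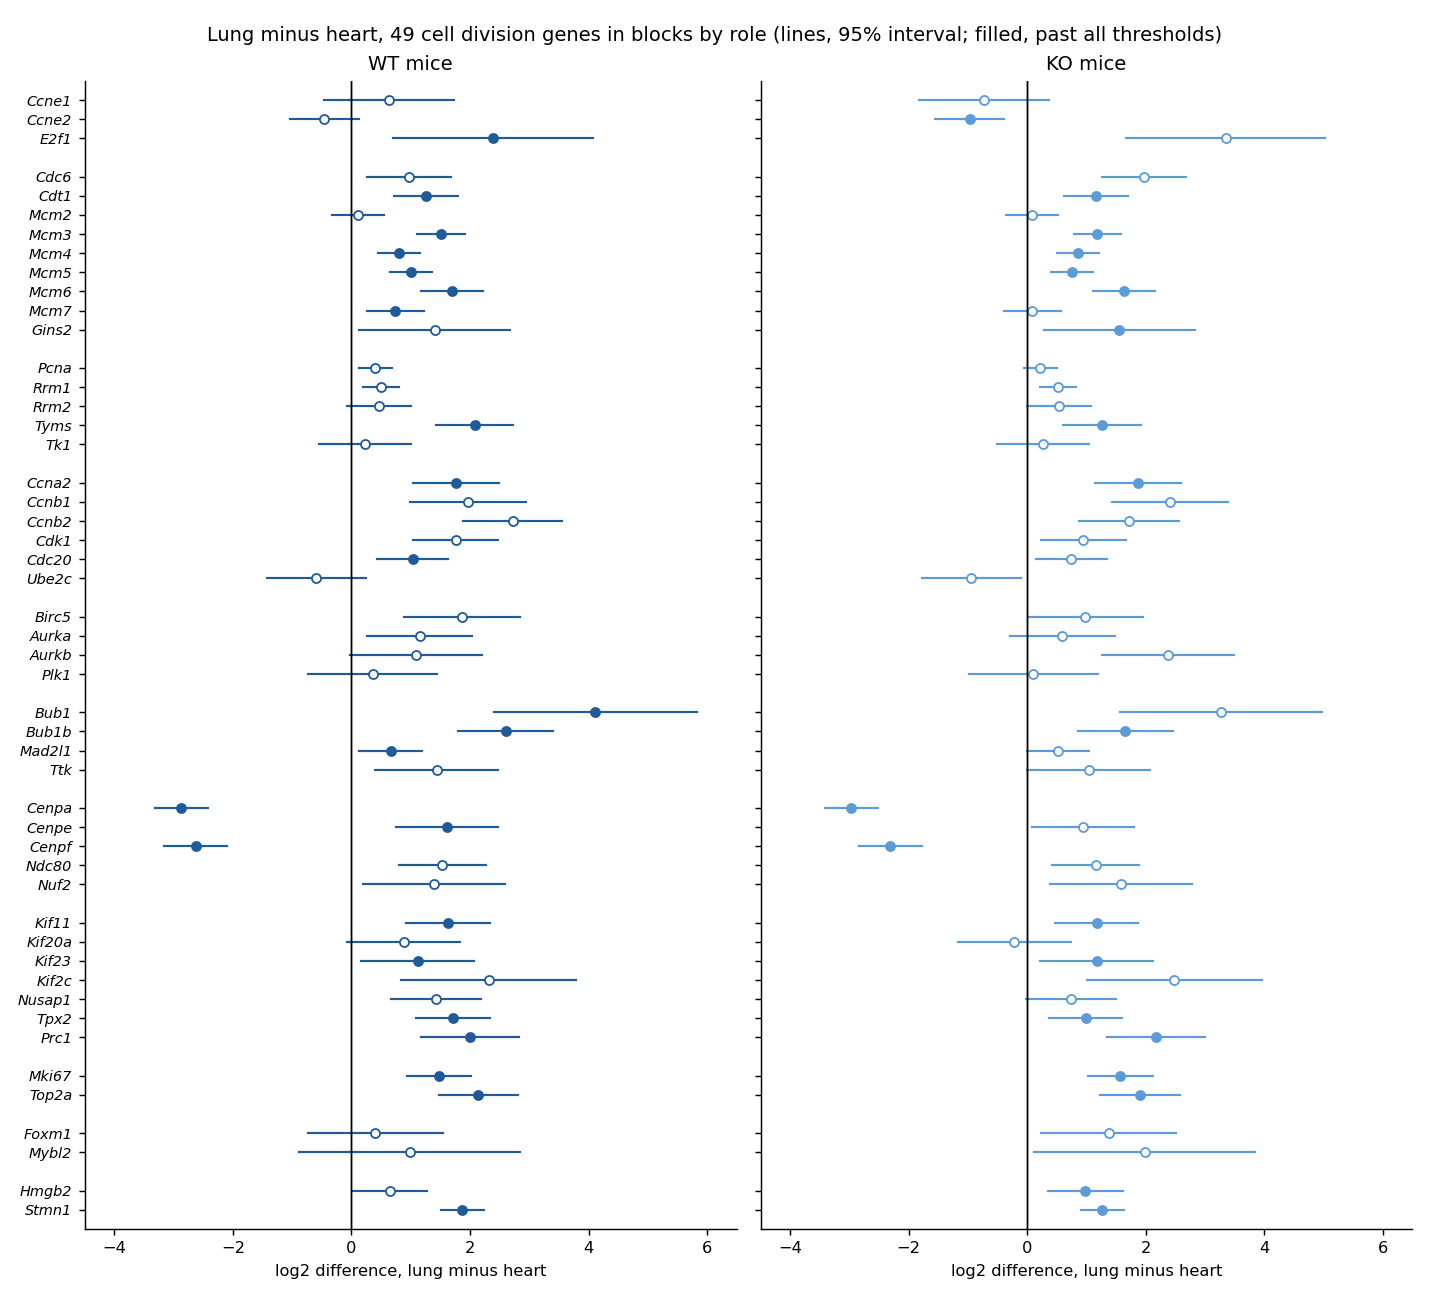
Log2 difference, lung minus heart (x axis), of the 49 genes in blocks by role (y axis) in WT mice (left) and KO mice (right), with 95% intervals from the fit and filled points past all thresholds. Of the WT points, 45 lie above 0, whereas Cenpa and Cenpf lie at -2.87 and -2.63.

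Per kilobase of transcript, Pcna, Stmn1 and Mcm7 stood among the 4 highest of the 49 genes in both tissues. In WT lung, Pcna had 632 ± 72.1 (SD, n = 3), Stmn1, a tubulin-binding protein that releases microtubule subunits, 630 ± 138, Mcm7 198 ± 39.4 and Rrm1 166 ± 6.62 per kilobase. These levels are estimated transcript counts, each divided by transcript length, summed over the gene and scaled by a constant for each library. Pcna and Stmn1 did not differ beyond their spread. The highest mitosis genes in WT lung were Top2a, the topoisomerase that untangles chromosomes, at 77.2 ± 31.9 and Mad2l1 at 63.7 ± 17.1 per kilobase. In WT heart, Pcna was again first at 466 ± 19.5 per kilobase, but Cenpa was second at 317 ± 49.98, whereas it stood 17th of the 49 in WT lung at 42.3 ± 4.88. Cenpf stood 9th in WT heart at 47.6 ± 2.29 and 44th in WT lung at 7.92 ± 2.55 per kilobase. The lowest gene in lung was the checkpoint kinase Ttk at 4.34 ± 1.66 and in heart the microtubule depolymerase Kif2c at 1.11 ± 0.962 per kilobase, neither of which differed beyond its spread from the next gene, Mybl2 in lung (4.38 ± 1.49) and Ttk in heart (1.33 ± 0.320).

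Among the 17 replication genes, 8 were called higher in WT lung and 7 in KO lung, against 29.3% and 28.7% of all genes. In heart, 0 were called higher in WT and 1 in KO mice, against 20.1% and 20.9%. In the group that licenses origins and forms the helicase, 6 of 9 were called in WT, with Mcm3, Mcm4, Mcm5, Mcm6 and Cdt1 called in both genotypes. Mcm6 had values of 8.22, 7.91 and 8.60 in WT and 7.94, 7.97 and 7.77 in KO lungs, and of 6.29, 7.05 and 6.28 in WT and 6.24, 6.37 and 6.15 in KO hearts. Every lung was thus above every heart, by 1.70 ± 0.24 (SE) in WT (adjusted p = 4.09e-05) and 1.64 ± 0.24 in KO mice. The other ring members ranged from a like difference to almost none. Mcm3 differed by 1.51 ± 0.18, Mcm5 by 1.01 ± 0.16, Mcm4 by 0.81 ± 0.16 and Mcm7 by 0.74 ± 0.22 in WT mice. Mcm2 stood at 8.14, 8.19 and 7.76 in WT and 8.12, 8.11 and 7.74 in KO lungs, and at 8.04, 7.61 and 8.11 in WT and 7.69, 7.99 and 8.04 in KO hearts. Its lungs and hearts overlapped, with a WT difference of 0.11 (95% interval -0.33 to 0.54). Mcm7 was called in WT but not in KO mice, where its difference was 0.08 ± 0.22. A difference between the genotypes in this tissue contrast was -0.65 ± 0.31 for Mcm7 (adjusted p = 0.634) and was not called.

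Of the genes for deoxynucleotide supply, Tyms, the thymidylate synthase, stood apart. It had values of 7.31, 7.14 and 7.57 in WT and 7.07, 7.10 and 6.57 in KO lungs, against 5.87, 5.02 and 4.90 in WT and 5.93, 5.27 and 5.75 in KO hearts. The lungs were above all hearts, by 2.08 ± 0.30 in WT (4.22-fold, adjusted p = 5.02e-05) and 1.26 ± 0.30 in KO mice (2.40-fold, adjusted p = 0.00247). The remaining genes of the group differed little. Pcna had values of 9.73, 9.65 and 9.98 in WT and 9.72, 9.66 and 9.77 in KO lungs, against 9.38, 9.49 and 9.28 in WT and 9.44, 9.42 and 9.63 in KO hearts. All of its lungs lay above its hearts, yet the WT difference of 0.40 ± 0.13 (adjusted p = 0.0146) was under the fold threshold, and so were those of Rrm1 (0.50 ± 0.14) and Rrm2 (0.46 ± 0.25), the subunits of ribonucleotide reductase. Tk1, the thymidine kinase of the salvage route, had 5.34, 5.68 and 5.90 in WT and 5.81, 5.16 and 4.80 in KO lungs, against 5.79, 5.15 and 5.27 in WT and 5.04, 4.46 and 5.49 in KO hearts. These groups overlapped, and the WT difference was 0.23 (95% interval -0.54 to 1.01).

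The factors of the G1/S transition did not move as a group. E2f1, an activating E2F factor, had 6.38, 6.83 and 6.05 in WT and 5.92, 5.96 and 5.76 in KO lungs, against 3.98, 4.17 and 3.93 in WT and 3.65, 0 and 3.94 in KO hearts. It was called higher in lung in WT mice at 2.39 ± 0.78 (adjusted p = 0.0155). In KO mice the difference was 3.35 ± 0.78 (adjusted p = 0.00202), with means under 6 in both tissues and 1 heart library listed at 0. Ccne2, a cyclin E that starts replication with Cdk2, went the other way. Its values were 5.01, 5.58 and 5.79 in WT and 5.12, 5.22 and 5.67 in KO lungs, and 6.0, 6.02 and 5.74 in WT and 6.24, 6.39 and 6.29 in KO hearts. It was called higher in heart in KO mice at -0.97 ± 0.27 (adjusted p = 0.00627), where every heart was above every lung, and this call was lost at -0.27 when libraries were scaled by total counts. In WT mice the difference was -0.46 ± 0.27 (adjusted p = 0.144) and the groups overlapped. Its partner Ccne1 differed by 0.63 ± 0.50 in WT and by -0.73 ± 0.50 in KO mice, neither past the adjusted p threshold.

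Of the 30 mitosis genes, 12 were called higher in WT lung and 8 in KO lung, against 29.3% and 28.7% of all genes. By adjusted p alone, 22 and 18 were higher in lung, against 41.2% and 40.1%. The spindle checkpoint held the largest difference. Bub1, a checkpoint kinase, had 5.87, 5.80 and 6.83 in WT and 6.54, 5.41 and 5.72 in KO lungs, against 4.12, 0 and 2.03 in WT and 2.20, 2.78 and 2.89 in KO hearts. The WT difference was 4.12 ± 0.79 (adjusted p = 0.000484), its size resting in part on the heart library listed at 0, and the mean passed the level minimum only with the third WT lung, without which the gene was not called at 3.79. Bub1b, its relative that restrains Cdc20, had 6.41, 6.39 and 7.72 in WT and 6.39, 6.26 and 6.08 in KO lungs, against 4.28, 4.26 and 4.18 in WT and 4.46, 4.16 and 5.13 in KO hearts. All lungs were above all hearts, by 2.60 ± 0.37 in WT (6.06-fold, adjusted p = 4.42e-05) and 1.66 ± 0.37 in KO mice (3.15-fold, adjusted p = 0.00163). Mad2l1, which binds Cdc20 at unattached kinetochores, differed by 0.66 ± 0.24 in WT (adjusted p = 0.0286). That call was lost without the third WT lung (0.45) and without the first (0.68) or the third (0.59) WT heart. With the mouse as a replicate block, which uses the pairing of lung and heart, the adjusted p of Mad2l1 was 0.0618.

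The chromosome proteins Top2a and Mki67 were called in both genotypes. Top2a had 8.10, 8.05 and 9.04 in WT and 8.19, 7.96 and 8.27 in KO lungs, against 6.46, 6.61 and 5.70 in WT and 5.93, 6.21 and 6.56 in KO hearts. No heart reached a lung, with differences of 2.14 ± 0.31 in WT (4.4-fold, adjusted p = 4.64e-05) and 1.90 ± 0.31 in KO mice (3.74-fold, adjusted p = 0.000128). Mki67, the source of the Ki-67 antigen of cycling cells, differed by 1.47 ± 0.25 in WT and 1.57 ± 0.25 in KO mice. Of the 7 kinesin and spindle genes, Kif11, Kif23, Tpx2 and Prc1 were called higher in lung in each genotype. These are 4 of 7, against 29.3% of all genes in WT and 28.7% in KO mice. Prc1, which bundles microtubules of the central spindle, had 6.64, 6.34 and 7.51 in WT and 6.88, 6.31 and 6.99 in KO lungs, against 4.79, 4.78 and 4.91 in WT and 4.64, 3.84 and 5.19 in KO hearts. Lungs and hearts were apart, by 2.0 ± 0.38 in WT (adjusted p = 0.000478) and 2.17 ± 0.38 in KO mice (adjusted p = 0.000257). Kif23, a motor of cytokinesis, was called with less certainty. Its WT difference of 1.11 ± 0.44 (adjusted p = 0.0385) failed without the first or second WT lung, the second KO lung, or the second or the third WT heart. The WT call also failed with limma-voom, with no filter and with median-of-ratios scaling. Its KO difference of 1.17 ± 0.44 failed without the first or second KO lung or the first or second KO heart, and with no filter. Tpx2, which activates Aurka on the spindle, lost its KO call (0.98 ± 0.29) without the third KO lung (0.83).

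The cyclins that drive mitosis had large differences but low levels. Ccnb2, a cyclin B, had 5.62, 5.07 and 5.96 in WT and 5.14, 5.0 and 5.09 in KO lungs, against 3.40, 2.77 and 2.32 in WT and 3.09, 3.13 and 3.87 in KO hearts. The WT difference was 2.72 ± 0.39 (adjusted p = 4.13e-05), with no overlap, but the means were under 6, as for Ccnb1 (1.97 ± 0.45) and Cdk1 (1.76 ± 0.33). Kif2c, which takes microtubules apart at centromeres, likewise differed by 2.32 ± 0.68 in WT (adjusted p = 0.00888) from 4.21, 3.41 and 4.71 in WT and 4.25, 4.98 and 4.44 in KO lungs to 2.76, 2.61 and 0 in WT and 1.45, 2.30 and 2.50 in KO hearts. In total, 14 genes in WT and 14 in KO mice passed the adjusted p threshold without being called, of which 12 and 13 had means under 6 in both tissues. Ccna2, the cyclin shared by replication and mitosis, was called in both genotypes at 1.76 ± 0.33 and 1.86 ± 0.33, the KO call failing without the third KO lung (1.57). Cdc20 was called in WT mice at 1.03 ± 0.28 (adjusted p = 0.00508), but not without the third WT lung (0.97) or with median-of-ratios scaling (0.90). In KO mice it differed by 0.74 ± 0.28 (adjusted p = 0.0303) with no overlap, and its lung mean of 5.89 was under the level minimum. Its partner Ube2c, the ubiquitin-conjugating enzyme of the anaphase-promoting complex, differed by -0.59 ± 0.38 in WT (adjusted p = 0.189) and -0.95 ± 0.38 in KO mice (adjusted p = 0.0442), under the level minimum. Of the mitotic kinases, Plk1 overlapped between the tissues, with 4.49, 4.52 and 3.80 in WT and 3.67, 3.63 and 3.68 in KO lungs and 3.75, 3.06 and 4.94 in WT and 2.79, 4.16 and 3.72 in KO hearts. Its WT difference was 0.35 (95% interval -0.74 to 1.45). No gene among Plk1, Aurka, Aurkb and Birc5 was called, but all had means under 6 in both tissues and could not be. By adjusted p alone, Birc5 and Aurka, 2 of the 4, were higher in WT lung. In KO lung 1, Aurkb, was higher. The shares of all genes were 41.2% and 40.1%. The mitotic transcription factors Foxm1 and Mybl2, also with means under 6, were not called either, at 0.40 ± 0.53 and 0.98 ± 0.86 in WT mice. By adjusted p alone, Foxm1 was higher in KO lung.

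Cenpa and Cenpf were the genes called higher in heart in both genotypes. Cenpa, the histone H3 variant that marks centromeres, lies at chr5:30824121-30842921 (GRCm39, plus strand). It had 5.77, 5.65 and 5.45 in WT and 5.35, 5.29 and 5.79 in KO lungs, against 8.52, 8.26 and 8.70 in WT and 8.32, 8.51 and 8.50 in KO hearts. All hearts were above all lungs, with differences of -2.87 ± 0.20 in WT (7.30-fold higher in heart, adjusted p = 7.84e-08) and -2.97 ± 0.20 in KO mice (7.83-fold, adjusted p = 6.27e-08). Cenpf, a large coiled-coil protein of the outer kinetochore and the nuclear envelope, lies at chr1:189372752-189420315 (GRCm39, minus strand). It had 5.79, 6.76 and 6.53 in WT and 6.16, 6.27 and 6.57 in KO lungs, against 9.06, 8.93 and 8.97 in WT and 8.93, 8.55 and 8.45 in KO hearts. The tissues were again apart, by -2.63 ± 0.24 in WT (6.19-fold, adjusted p = 8.76e-07) and -2.31 ± 0.24 in KO mice (4.95-fold, adjusted p = 2.99e-06). The other kinetochore genes went with the lung. Ndc80 differed by 1.53 ± 0.34, Nuf2, its partner in the complex that grips microtubules, by 1.39 ± 0.55 and the motor Cenpe by 1.61 ± 0.40 in WT mice, of which Cenpe alone was called, and not with median-of-ratios scaling (1.48).

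**Figure D3:**
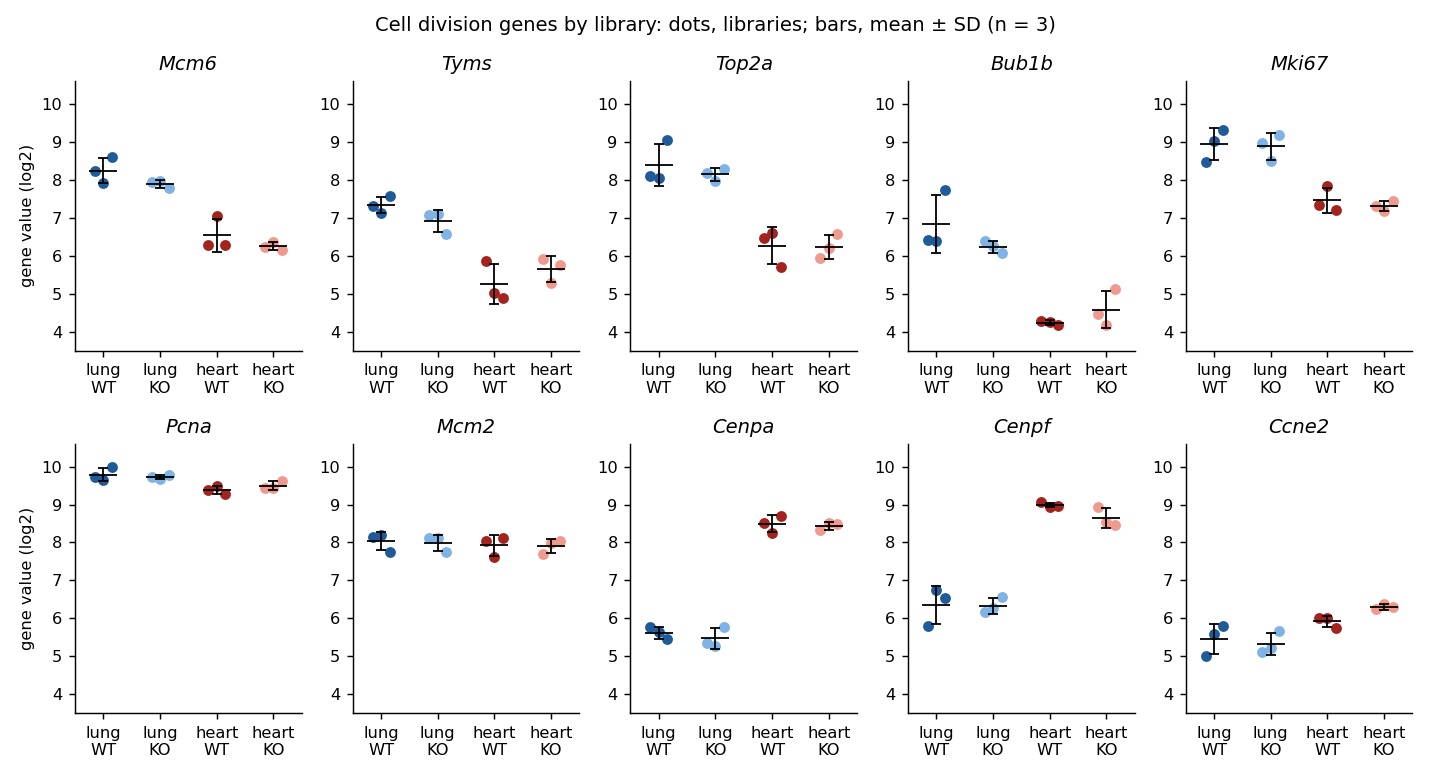
Log2 gene values (y axis) of 10 genes in each library by tissue and genotype (x axis), with dots for libraries and bars for the mean ± SD of 3. Mcm6, Tyms, Top2a, Bub1b and Mki67 are higher in lung, Pcna and Mcm2 differ by 0.40 and 0.11 in WT mice, and Cenpa, Cenpf and, in KO mice, Ccne2 are higher in heart.

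The transcript table shows which isoforms carried these 2 genes. Nearly all estimated counts of Cenpf came from its full-length coding transcript ENSMUST00000171929.8, 98.98% in WT lungs and 99.9% in WT hearts. Those of Cenpa came mostly from ENSMUST00000133316.8, which the annotation marks as a target of nonsense-mediated decay, with 58.8% in WT lungs and 57.3% in WT hearts. The coding transcript ENSMUST00000144742.6 gave 33.4% and 30.2%. Both Cenpa transcripts had more estimated counts in every WT heart than in any WT lung. By counts recovered from the gene values, Cenpf had 45 to 112 in WT lungs and 282 to 570 in WT hearts, and Cenpa 41 to 52 and 177 to 391.

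Some members share sequence with near-identical copies elsewhere in the genome, among which reads could be split. Such copies, at 95% identity or more over at least 500 bases, were found for Ccnb1, Cdc6, Hmgb2, Mcm7, Mybl2 and Pcna. Summing a gene with its copies changed 1 call. Hmgb2, a DNA-bending chromatin protein, had 7.49, 6.79 and 7.56 in WT and 7.18, 7.10 and 7.0 in KO lungs, against 6.75, 6.30 and 6.84 in WT and 6.67, 5.66 and 6.02 in KO hearts. Its WT tissues overlapped and the difference of 0.65 ± 0.29 was not called (adjusted p = 0.0643), but it was called at 0.79 (adjusted p = 0.00229) once 5 copies were added, and also with the replicate block (adjusted p = 0.0413). In KO mice it was called either way. Stmn1 had no such copy and was called in both genotypes at 1.87 ± 0.17 and 1.27 ± 0.17.

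Other genes of the same pathways were called higher in lung about as often as all genes. Their lists, too, were chosen with earlier results of these data known. Of 37 other replication genes, 11 (29.7%, against 29.3% of all genes) were called higher in WT lung and 3 (8.11%, against 20.1%) in WT heart, with a median difference of 0.57 against 0.32. The largest were Chaf1b, a histone chaperone, at 3.18 ± 0.32, and Cdc7 and Dbf4, the kinase and its activator that fire origins, at 2.47 ± 0.44 and 2.15 ± 0.23. In the other direction stood Gmnn, the inhibitor of Cdt1, at -1.89 ± 0.15 (adjusted p = 2.08e-07), Rpa1, which coats single-stranded DNA, at -0.79 ± 0.13, and Gins1, which was not called in WT at -1.02 ± 0.28. Of 46 other mitosis genes tested, 15 (32.6%, against 29.3%) were called higher in WT lung and 2 (4.35%, against 20.1%) in WT heart, with a median of 1.23. Only 20 of these 46 averaged 6 or more in either WT tissue, against 13642 of the 17666 genes tested. By adjusted p alone, 28 of the 46, and 14 of the 37 replication genes, were higher in WT lung, against 41.2% of all genes. In WT heart it was 2 and 5, against 26.1%. Of the mitosis genes, Ncapg, Sapcd2 and Kif15 had the largest differences at 2.74 ± 0.59, 2.70 ± 0.85 and 2.60 ± 0.63, all under the level minimum. The 2 called in heart were Spc24, of the same complex as Ndc80 and Nuf2, at -1.30 ± 0.27 and the condensin subunit Ncapd2 at -1.12 ± 0.15, whereas Shcbp1 at -1.19 ± 0.56 was not called.

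Genes that act before division or against it were called in shares near or below those of all genes. Of 8 G1 cyclins and kinases, Ccnd1 (1.76 ± 0.15) and Cdk6 (0.93 ± 0.12) were called higher in WT lung and Ccnd2 (-0.85 ± 0.19) in WT heart, which is 25% and 12.5% against 29.3% and 20.1% of all genes. Of 29 inhibitors and quiescence genes, 9 (31%, against 29.3%) were called higher in WT lung and 5 (17.2%, against 20.1%) in WT heart. The lung side included Cdkn2b, an inhibitor of Cdk4 and Cdk6, at 5.18 ± 0.22, the pocket protein Rbl1 at 2.33 ± 0.20, and Rb1 at 0.74 ± 0.18. On the heart side were Ccng1, a target of p53, at -3.00 ± 0.20, the repressor E2f6 at -2.17 ± 0.13 and Fzr1, which directs the anaphase-promoting complex in G1, at -1.03 ± 0.20. Cdkn1a, which encodes the inhibitor p21, differed by 0.19 ± 0.37 in WT and -0.38 ± 0.37 in KO mice (adjusted p = 0.658 and 0.370).

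Markers of several other cell types moved with the tissue. Summed values of 9 T and B lymphocyte markers were at 10.5 to 11.3 in lungs and 6.19 to 6.75 in hearts, those of 5 neutrophil markers at 10.5 to 11.6 and 3.70 to 5.86, those of 6 macrophage markers at 12.9 to 13.0 and 11.5 to 11.9, and those of 5 endothelial markers at 15.4 to 15.6 and 13.9 to 14.0. Granulocyte precursor markers summed to 6.06 to 9.78 in lungs and 2.74 to 6.0 in hearts, with the defining marker Elane at 0 in all 12 libraries. Summed stromal markers went the other way, at 14.1 to 14.4 in lungs and 14.8 to 15.1 in hearts. Singly these 5 markers were split, with 2 higher in lung and 3 higher in heart by the sign of the WT difference, and 1 and 4 in KO mice. Other lists overlapped between the tissues, namely erythroid markers, at 12.9 to 17.2 in lungs and 12.8 to 15.8 in hearts, and adipocyte markers, at 8.13 to 11.6 and 9.35 to 12.8. The part of all these cells in the tissue differences of the division genes was not tested.

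The comparison of KO with WT asks whether loss of Adam19 alters the genes in either tissue. In lung, 0 of 49 genes were called, against 0.0665% of 16551 genes tested, and 1 (2.04%) had an unadjusted p under 0.05, against 5.93%. No alternative fit called any of them. Most differences were small and negative, with 41 of 49 genes (83.7%) lower in KO against 48.4% of all genes, and a median of -0.18 against 0.01, but scaling by total counts turned the share to 36.7% and the median to 0.10, beside a shift of the median of all genes to 0.30. The share was 90.0% in mitosis genes and 70.6% in replication genes. It fell to 65.3% without the third WT lung and to 65.3% without the second KO lung.

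**Figure D4:**
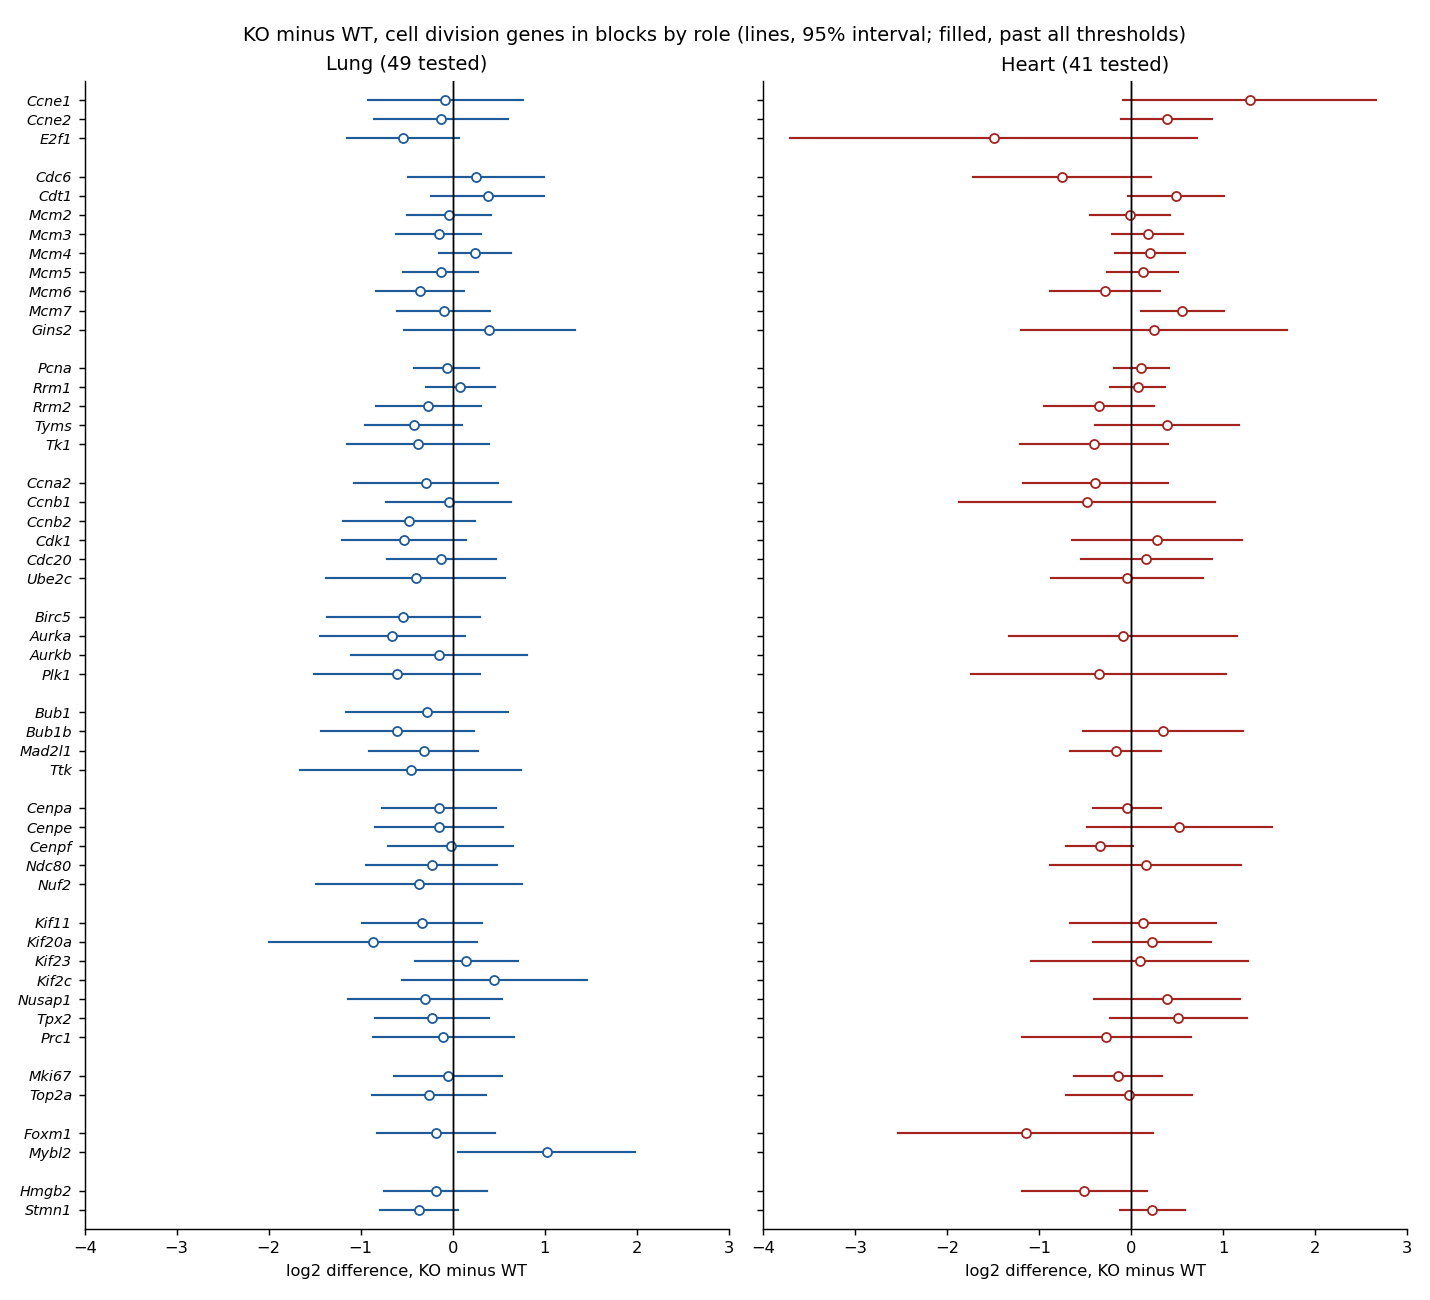
Log2 difference, KO minus WT (x axis), of the genes in blocks by role (y axis) in lung (left, 49 tested) and heart (right, 41 tested), with 95% intervals from the fit. No point is filled, that is, none passed the thresholds in either tissue.

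Mybl2, a transcription factor that switches MuvB to activation, had the smallest p in lung. It stood at 3.29, 4.21 and 3.95 in WT and at 5.0, 5.21 and 4.30 in KO lungs, so all KO were above all WT libraries, by 1.02 ± 0.42 (adjusted p = 0.820). Behind it lay 7 to 56 counts per lung library, as recovered from the gene values. E2f1, Aurka and Tyms were lower in all KO than in all WT lungs, and so were Plk1 and Bub1b, which gives 5 genes (10.2%, against 6.4% of all genes), with Mybl2 as the 1 gene higher (2.04%, against 6.41%). From the values given above, E2f1 differed by -0.54 ± 0.27 (adjusted p = 0.836) and Tyms by -0.42 ± 0.23 (adjusted p = 0.841). Aurka, a spindle pole kinase, had 4.41, 4.73 and 4.89 in WT and 4.15, 3.93 and 3.98 in KO lungs, a difference of -0.65 ± 0.34 (adjusted p = 0.839). The groups overlapped for the rest of the 8 smallest p. Stmn1 had 10.01, 9.80 and 10.34 in WT and 9.74, 9.47 and 9.83 in KO lungs (-0.37 ± 0.19). Cdk1 had 6.03, 5.75 and 5.65 in WT and 5.65, 5.30 and 4.88 in KO lungs (-0.53 ± 0.30). For Kif20a, a motor of cytokinesis, the third WT lung at 7.36 stood above 5.40 and 5.83 in WT and 5.60, 4.84 and 5.54 in KO lungs (-0.87 ± 0.50). Mcm6, with values given above, differed by -0.35 ± 0.21. For all of these the adjusted p was at least 0.820, and an exact permutation test of 3 against 3 libraries cannot go below p = 0.10.

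Single lungs moved the mitosis genes together. In the third WT lung, 21 of 30 mitosis genes (70.0%) had their highest value of the 3 WT lungs, against 41.2% of replication genes and 46.9% of all genes. Their median stood 0.40 above the mean of the 6 lungs, against 0.00 for replication genes and 0.07 for all genes. In the second KO lung the mitosis genes stood at -0.39, against 0.04 and 0.01, and 2 of 30 (6.67%) had their highest KO value there. In the third KO lung it was instead the replication genes that were low, at -0.23, with mitosis genes at -0.01. Summed erythroid markers were 14.9, 14.98 and 16.7 in WT and 17.2, 12.9 and 13.4 in KO lungs and lymphocyte markers 11.3, 10.5 and 11.02 in WT and 11.2, 10.9 and 11.2 in KO lungs. Heart muscle markers summed to 13.98, 13.9 and 14.6 in WT and 13.9, 13.3 and 13.4 in KO lungs, highest in the third WT and lowest in the second KO lung as the mitosis genes were. By the group means, 6 of 7 heart muscle markers were lower in KO (median -0.50), against 48.4% of all genes. So were 6 of 6 erythroid markers tested (median -1.08), with their sum lowest in the second but highest in the first KO lung. Of the lymphocyte markers 1 of 9 was lower (median 0.10). Rn7s1 took 33.9%, 29.8% and 2.09% in WT and 10.5%, 3.22% and 20.3% in KO lungs. The part of these in the pattern was not tested.

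**Figure D5:**
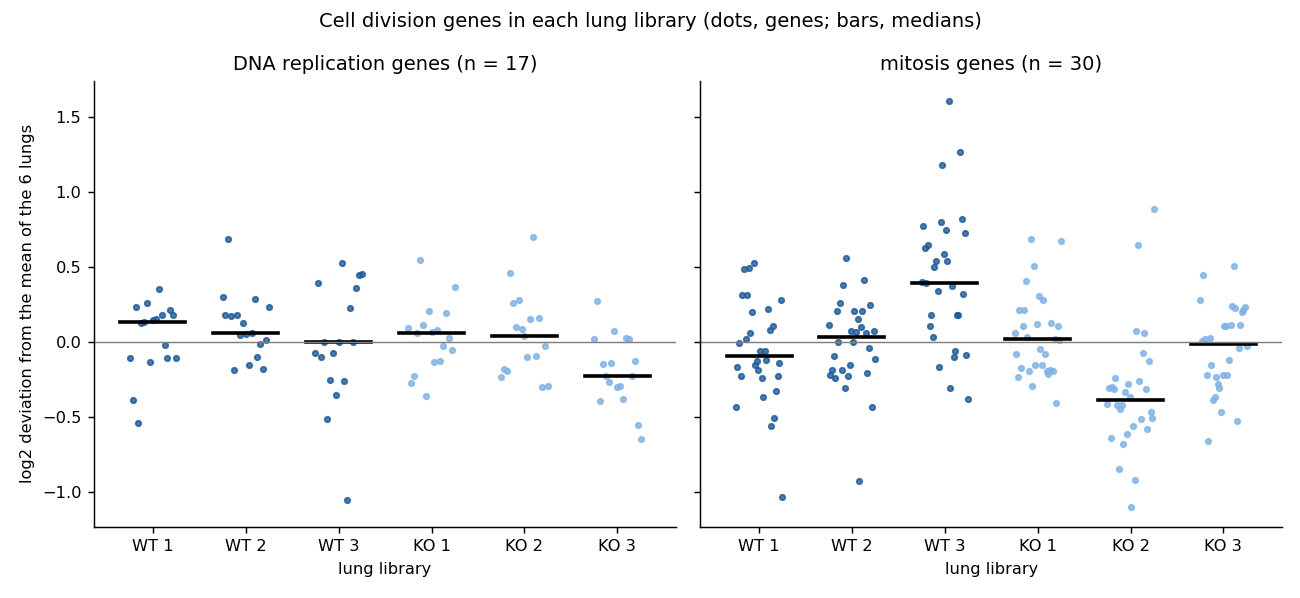
Log2 deviation of each gene from its mean over the 6 lungs (y axis) in each lung library (x axis), for 17 replication genes (left) and 30 mitosis genes (right), with bars at the medians. The mitosis median is at 0.40 in the third WT lung and at -0.39 in the second KO lung, where the replication medians are at 0.00 and 0.04.

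In heart, 41 genes passed the filter on low values. Of these, 0 were called, against 0.085% of 15303 genes tested, and 1 (2.44%) had an unadjusted p under 0.05, against 7.46%. Lower in KO were 19 of 41 (46.3%, against 45.0% of all genes), with a median of 0.09 against 0.03. Mcm7 had the smallest p, with 7.98, 7.71 and 8.15 in WT and 8.24, 8.44 and 8.83 in KO hearts. All KO were above all WT hearts, by 0.55 ± 0.20 (adjusted p = 0.609). Cdt1, at 5.42, 5.63 and 5.51 in WT and 6.10, 5.97 and 5.95 in KO hearts, differed by 0.48 ± 0.23 (adjusted p = 0.693), and Ccne2, with values given above, by 0.38 ± 0.22. Together with Mcm5 they were the 4 genes (9.76%, against 7.82% of all genes) with all KO hearts higher. Lower in all KO hearts were 2 genes (4.88%, against 5.23%), Cenpf by -0.34 ± 0.16 (adjusted p = 0.691) and Cdc6, which had 4.10, 3.94 and 4.33 in WT and 3.09, 3.68 and 3.32 in KO hearts (-0.76 ± 0.43). The sign of Cdc6 depended on the table, since summed transcripts gave 0.11. The groups overlapped for Ccne1, with 4.72, 3.31 and 2.35 in WT and 4.92, 4.99 and 4.32 in KO hearts (1.29 ± 0.60), and for Hmgb2 (-0.51 ± 0.30). They also overlapped for Foxm1, the factor that drives mitotic genes, with 5.62, 6.81 and 4.23 in WT and 4.01, 5.01 and 4.18 in KO hearts (-1.15 ± 0.61). Counts of Foxm1 recovered from the gene values were 9.78 to 63.8 in WT and 16.4 to 32.8 in KO hearts. Its main transcript had 13.5 to 27.5 and 22.6 to 28.9 estimated counts, so the size of the Foxm1 difference may also depend on which counts are used. The 8 genes not tested, Ccnb2, Birc5, Aurkb, Bub1, Ttk, Kif2c, Nuf2 and Mybl2, had at most 29 counts recovered from the gene values in any heart.

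A test of whether the genotype difference itself differed between lung and heart called 0 of 49 genes, against 0.00566% of 17666, and 2 (4.08%) had an unadjusted p under 0.05, against 7.88% of all genes. These were Stmn1 at -0.60 ± 0.24 (adjusted p = 0.599) and Cdc6 at 1.01 ± 0.46 (adjusted p = 0.634). The other replication and mitosis lists and the lists of G1 genes and inhibitors likewise held 0 genes called between the genotypes in lung or in heart. Adam19 itself lies on chromosome 11, as do Cdc6, Top2a, Aurkb, Tk1 and Birc5. In lung they differed between the genotypes by 0.25, -0.26, -0.15, -0.38 and -0.54, and none was called.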

How the data were processed

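Strand-specific total RNA libraries from lung and heart of 6 mice were quantified by the authors, whose processing notes name cutadapt, STAR, Salmon and limma 3.42.2, against GENCODE transcripts (mm39). The deposited gene values are log2 estimated counts plus a constant for each library, and the deposited transcript values are log2(1 + estimated count). How the constants were derived is not given in the sources used here, so estimated counts per gene were recovered by removing them.

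Genes with a deposited value of at least 3.46, that is log2(1 + 10), in at least 3 libraries of a fit were tested. The library constants, from -0.63 to 0.80, were not removed for this filter. The value therefore stood for more than 10 estimated counts in some libraries and fewer in others. Tests used limma 3.58.1 (R 4.3.3, lmFit and eBayes with trend, two-sided). Genotype was compared within each tissue (6 libraries), and tissue and its interaction with genotype over all 12. P-values were adjusted over all genes tested, and the procedure was tested on simulated data. Lung and heart of 1 mouse share a number by the mouse identifiers in the labels, and their deviations from group means correlated between -0.0676 and 0.136 over 17666 genes. Alternatives were limma-voom on recovered counts, other filters and scalings, summed transcripts, no trend, the mouse as block and each library left out. Levels per length used transcript lengths, near-identical copies were found with blastn 2.17.0, and promoter letters with Python 3.11.15. Libraries had 17674788 to 35862932 estimated counts.

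Values in every library are given for the 8 smallest p of each genotype comparison, the 10 largest and 4 smallest WT tissue differences, the genes called higher in heart and those whose copies change a call. The genes and lists were chosen with earlier results of these data known.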

Additional observations from a re-analysis of the deposited data

How the results depend on the processing

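No cell division gene was called between the genotypes in lung, in heart or in the interaction under any alternative run. The share of genes lower in KO lung turned from 83.7% to 36.7% and the median from -0.18 to 0.10 with total count scaling, which shifted the median of all genes to 0.30, and the share ranged from 65.3% to 81.6% with 1 library left out. In heart the share of 46.3% ranged from 35.6% to 53.5%, the last without the third KO heart, and the median from -0.031 to 0.129. The interaction median was 0.082 with total count scaling. The Cdc6 difference in heart was 0.111 from summed transcripts. The count called higher in lung was 19 to 22 in WT and 15 to 18 in KO mice with 1 library left out, and 28 in KO mice with total count scaling. Median-of-ratios scaling gave 17 and 14, without Cdc20, Mad2l1, Kif23 and Cenpe in WT and without Gins2, Ccna2 and Tpx2 in KO mice. With the mouse as replicate block, the counts were 21 higher in lung and 2 higher in heart in WT, 17 and 3 in KO mice, and 0 in the interaction; beyond Mad2l1 and Hmgb2 in WT it changed no call. The cause of these shifts was not tested. Genes at few estimated counts, such as Mybl2, Ttk and Kif2c, limit what these depths can show.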
